A study of Mus musculus with 28 samples.

Results

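The promoters of long noncoding RNA genes described here are accessible chromatin regions of retinal Müller cells whose summit lay within 1 kb of the transcription start site (TSS) of a gene typed lincRNA, antisense or processed_transcript in GENCODE M21, and more than 1 kb from every protein-coding TSS. There were 1023 of them among 45198 autosomal regions of the control list (2.26%) and 1339 among 63598 of the db/db list (2.11%). The choice used the position of 1 summit per region, that of its peak with the highest signal, and this was done in each list by itself. Several peaks were merged in 57.0% of control and 53.2% of db/db members, so signal entered through the choice of summit. No cut on signal was made, and genotype did not enter the choice. They are called long noncoding promoters in the following, and they are set beside 2 other classes of the same lists, the regions within 1 kb of a protein-coding TSS (coding promoters, 13364 control and 15088 db/db) and the regions more than 1 kb from every annotated TSS (distal regions, 30241 and 46355).

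The lists come from ATAC-seq, in which a transposase inserts adapters into open chromatin, carried out by the omni-ATAC protocol on cells of 6-month-old mice. The control mice are labelled WT, and in the methods db/+ mice, which do not develop diabetes, also served as controls. Db/db mice carry 2 mutated copies of the leptin receptor gene Lepr on the BKS background, and become obese and diabetic. Mice of both sexes from a colony bred from 2 commercial BKS sources were used. The Müller cells were enriched by magnetic sorting as the CD11b-, CD31-, CD29+ fraction of the retina. This removes microglia and vascular cells by the first 2 antigens and can keep a few astrocytes. According to the paper, a degree of photoreceptor carry-over is also unavoidable. There was 1 list per genotype, attached to replicate 1, so no difference between genotypes has a replicate check and none was tested. The caller, its threshold, the read depth and any pooling of reads before calling are not given in the sources used here. The signal value of each peak was therefore ranked within its list and given as a percentile from 0 (lowest) to 100 (highest). Where signals of both lists are printed side by side, their scales may differ, and a rise or fall refers to the percentile. Intervals are 95% and cover counting error only.

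The sort was checked on coding promoters. All 10 Müller cell markers (among them Glul, Rlbp1, Kcnj10 and Aqp4) had a region within 1 kb of a TSS in both lists. Their percentiles ran from 4.59 to 67.0 in the control and from 6.27 to 74.3 in the db/db list. Of 10 rod photoreceptor markers 8 had a region in the control list, at percentiles from 5.82 to 62.9, and 6 in the db/db list, at 6.79 to 65.3. Rp1 and Pde6a had none in the control list, and Pde6b, Cnga1, Nr2e3 and Pde6a had none in the db/db list. Of 6 microglial markers P2ry12 alone had a region, of 6 vascular markers Kdr, Tek and Pdgfrb, and of 4 astrocyte markers Gfap, S100b and Aldh1l1, in both lists. P2ry12 stood at percentiles 65.5 (control) and 76.0 (db/db). The vascular markers ran from 17.2 to 30.4 and from 34.6 to 39.8, and the astrocyte markers from 4.30 to 90.5 and from 17.8 to 93.7. Over the markers with a region, the Müller cell median was percentile 37.5 in the control and 51.5 in the db/db list. It was above the medians of rod (23.6 and 26.7), vascular (23.5 and 36.1) and astrocyte markers (25.2 and 40.8), though the ranges overlapped. It was below P2ry12 in both lists. Of 6 bipolar cell markers 2 had a region in both lists, and of 6 amacrine and ganglion cell markers 1 in the control and 2 in the db/db list. Their medians were 29.8 and 55.8 for bipolar, and 38.9 and 21.8 for amacrine and ganglion cells. Neither group was below the Müller cell median in both lists. What part other cell types have in the regions described here was not tested.

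Long noncoding RNAs are transcripts without a long open reading frame. They are made by RNA polymerase II, often capped, spliced and polyadenylated like messenger RNA, and many are retained in the nucleus. A lincRNA gene lies between coding genes, an antisense gene overlaps a coding gene on the other strand, and processed_transcript is the annotation's name for spliced noncoding transcripts that were put in neither class. Some are hosts, whose introns or exons are processed to small nucleolar RNAs or microRNAs. Some, such as Airn and Kcnq1ot1, are made from 1 parental chromosome and silence neighbouring imprinted genes in cis. An accessible promoter shows that the DNA at the start site can be reached by the transposase, and does not measure the transcript.

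The promoters of 8 genes are printed to show how differently built these start sites were. The RefSeq promoter table (GRCm38.p6, 250 bases before to 50 bases after the start) held an entry of the same symbol within 1 kb of the annotated TSS for 378 of the 1023 control regions (37.0%) and 482 of the 1339 db/db regions (36.0%), too few to draw shares over all members from these windows. Capitals mark strings searched on both strands. The TATA box was searched as TATAAA, held by 13.6% of all 31396 autosomal promoters in the table. The site of NF-Y was searched as CCAAT, held by 37.3%. The GC box of SP factors was searched as GGGCGG, held by 36.0%. The site of ETS factors was searched as CCGGAAG, held by 9.004%. The E-box was searched as CACGTG, held by 7.14%. The AP-1 site was searched as TGACTCA, held by 5.26%. The nuclear factor I site was searched as TTGGCA, held by 14.1%, and that of the homeodomain factors OTX2 and CRX as GGATTA, held by 7.06%. A match is a description of the letters and not a binding site. The first pair are strongly accessible in both lists, AA465934 (chr11:83291449-83291748, plus strand), with 2 NF-Y strings and 1 E-box, and the small nucleolar RNA host Snhg15 (chr11:6528711-6529010, minus strand), with 1 each of the GC box, E-box, nuclear factor I and OTX2 strings.
AA465934: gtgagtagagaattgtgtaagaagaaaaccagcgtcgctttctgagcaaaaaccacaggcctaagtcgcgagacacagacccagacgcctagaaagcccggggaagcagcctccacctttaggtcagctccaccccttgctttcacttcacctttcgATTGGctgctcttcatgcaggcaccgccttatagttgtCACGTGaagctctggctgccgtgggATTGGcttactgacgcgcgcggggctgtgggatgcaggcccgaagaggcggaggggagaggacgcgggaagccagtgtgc
Snhg15: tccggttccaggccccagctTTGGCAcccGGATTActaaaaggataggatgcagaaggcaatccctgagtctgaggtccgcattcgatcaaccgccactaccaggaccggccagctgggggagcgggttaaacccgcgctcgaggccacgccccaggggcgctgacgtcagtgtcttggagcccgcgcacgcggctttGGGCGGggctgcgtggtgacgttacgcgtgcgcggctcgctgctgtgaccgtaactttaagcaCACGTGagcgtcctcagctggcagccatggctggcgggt
The next pair are start sites of imprinted antisense transcripts inside coding genes, Kcnq1ot1 in Kcnq1 (chr7:143296498-143296797, minus strand), with 3 NF-Y strings, and Airn in Igf2r (chr17:12741061-12741360, plus strand), with 1 each of the TATA box, GC box and OTX2 strings.
Kcnq1ot1: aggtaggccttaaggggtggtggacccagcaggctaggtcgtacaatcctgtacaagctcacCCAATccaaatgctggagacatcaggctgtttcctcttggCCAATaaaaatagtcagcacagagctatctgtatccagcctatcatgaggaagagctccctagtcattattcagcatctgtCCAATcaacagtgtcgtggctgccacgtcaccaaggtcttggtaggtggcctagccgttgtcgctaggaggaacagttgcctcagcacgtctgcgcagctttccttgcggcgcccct
Airn: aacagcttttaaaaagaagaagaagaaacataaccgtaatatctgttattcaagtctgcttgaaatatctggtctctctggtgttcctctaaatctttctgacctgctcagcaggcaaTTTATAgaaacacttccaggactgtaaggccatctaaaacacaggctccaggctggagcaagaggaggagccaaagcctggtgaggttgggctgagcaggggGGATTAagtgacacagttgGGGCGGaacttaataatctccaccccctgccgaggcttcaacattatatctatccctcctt
The third pair were found in the control list only, 1700001L05Rik (chr15:83367248-83367547, minus strand), with 4 GC boxes and 2 E-boxes, and Gm15348 (chr8:12719078-12719377, minus strand), with 1 OTX2 string.
1700001L05Rik: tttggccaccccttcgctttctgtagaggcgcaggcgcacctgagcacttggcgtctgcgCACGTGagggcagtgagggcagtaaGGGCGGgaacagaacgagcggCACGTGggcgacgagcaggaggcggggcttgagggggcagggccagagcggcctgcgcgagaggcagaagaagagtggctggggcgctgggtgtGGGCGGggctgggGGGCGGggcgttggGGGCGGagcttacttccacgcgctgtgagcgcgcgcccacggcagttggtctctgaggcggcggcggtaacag
Gm15348: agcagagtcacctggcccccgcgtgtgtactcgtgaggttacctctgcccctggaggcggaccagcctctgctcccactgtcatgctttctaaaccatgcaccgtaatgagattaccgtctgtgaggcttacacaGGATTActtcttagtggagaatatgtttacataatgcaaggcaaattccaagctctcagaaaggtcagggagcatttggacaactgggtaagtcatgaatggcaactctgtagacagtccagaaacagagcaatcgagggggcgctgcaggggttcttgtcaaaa
The last pair are Gm20139 (chr10:19141499-19141798, plus strand), one of the largest falls in rank, with 2 overlapping TATA box matches on opposite strands and 1 NF-Y string, and Gm33680 (chr12:45466032-45466331, plus strand), the strongest long noncoding promoter of the db/db list without a control region, with none of the strings.
Gm20139: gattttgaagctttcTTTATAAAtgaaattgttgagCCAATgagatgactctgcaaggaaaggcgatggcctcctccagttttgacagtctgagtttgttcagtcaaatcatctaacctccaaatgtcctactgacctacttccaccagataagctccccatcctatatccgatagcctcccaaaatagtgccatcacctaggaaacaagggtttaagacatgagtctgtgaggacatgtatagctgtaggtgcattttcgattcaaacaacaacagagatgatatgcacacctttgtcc
Gm33680: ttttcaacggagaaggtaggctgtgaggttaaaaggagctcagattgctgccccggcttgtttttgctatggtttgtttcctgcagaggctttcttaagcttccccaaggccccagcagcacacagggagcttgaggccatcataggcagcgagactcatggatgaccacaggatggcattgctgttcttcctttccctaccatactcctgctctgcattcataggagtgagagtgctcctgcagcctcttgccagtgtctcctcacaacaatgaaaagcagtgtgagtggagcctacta
GC content of the 8 windows ran from 42.3% (Gm20139) to 70.3% (1700001L05Rik). The ratio of observed to expected CpG dinucleotides ran from 0.152 (Gm33680) to 0.927 (Snhg15).

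Of 8875 autosomal genes of the 3 types, 7349 had a TSS more than 1 kb from every coding TSS and could be counted. A gene was called open when a long noncoding promoter had its summit within 1 kb of such a TSS. In the control list 978 were open (11.02% of 8875) and in the db/db list 1247 (14.1%). The 8875 include genes that could not be counted, so these shares are lower than over the 7349. No coding gene was left out in this way, and the coding shares that follow are not of the same kind. In the same lists 59.8% (59.1 to 60.5%) and 62.9% (62.3 to 63.6%) of 20807 protein-coding genes had an accessible promoter. By type, 624 lincRNA genes were open in the control list and 778 in the db/db list, 228 and 319 antisense genes, and 126 and 150 genes typed processed_transcript. The last were the most often open (16.7% and 19.9% of all 753). Of the lincRNA genes 4867 of 5209 could be counted, of the antisense genes 1967 of 2913, and of the processed_transcript genes 515. Both lists shared 932 open genes, and 1293 were open in either. Another 46 were open in the control list only. For 34 of these the nearest region had no partner, and for 12 an overlapping db/db region existed whose summit put it in another class. In the db/db list only, 315 genes were open, with counts of 303 and 12. These were 4.70% of the open control and 25.3% of the open db/db genes, against 0.715% and 5.62% of open protein-coding genes. Such shares count genes, and a gene can have several regions. Counted by region, 4.07% of all control and 31.4% of all db/db regions had no partner, and 1.65% and 12.1% of coding promoters.

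The summits sat around the annotated start, but less tightly than at coding genes (the plot of summit position). The median distance from summit to TSS was 213 bp (quartiles 67.0 and 532 bp) in the control list and 227 bp (69.0 and 544 bp) in the db/db list, against 55.0 and 64.0 bp at coding promoters. Within 100 bp of the TSS lay 34.2% (31.4 to 37.2%) and 32.9% (30.5 to 35.5%) of long noncoding summits, against 67.4% and 62.4% of coding ones. Most summits lay upstream of the TSS, 61.97% (58.96 to 64.9%) of control and 60.6% (58.0 to 63.2%) of db/db regions. At coding promoters these shares were 68.5% and 65.6%.

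**Figure D1:**
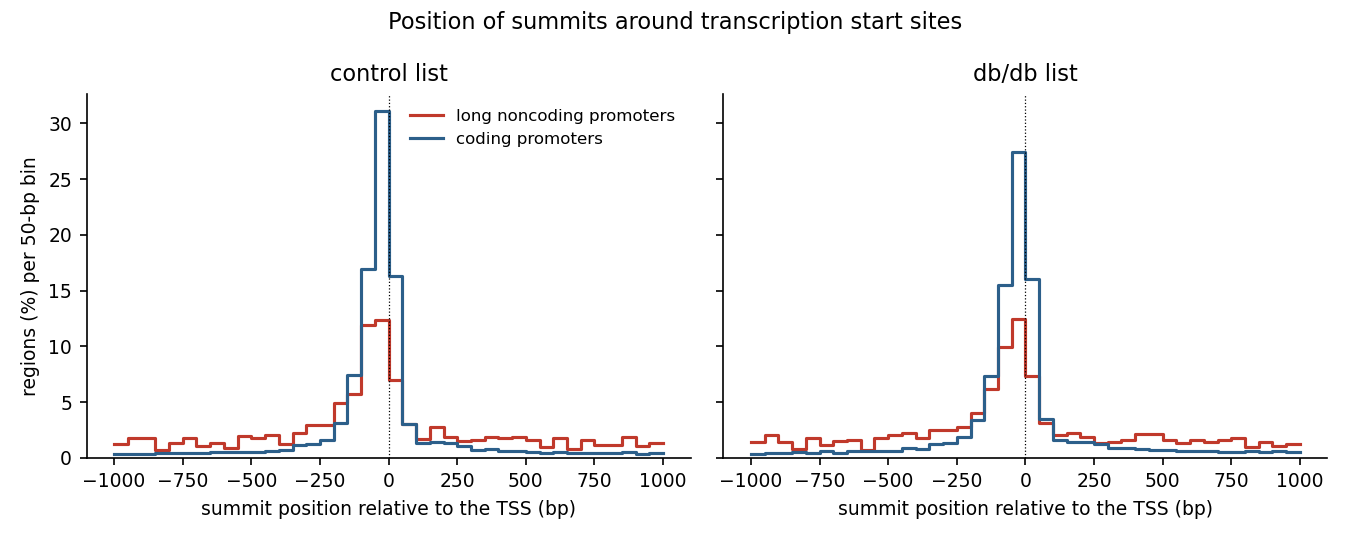
Position of the summit relative to the nearest TSS of its class, in bp along the direction of transcription (x axis, negative is upstream), as the share of regions per bin of 50 bp (y axis), for long noncoding promoters (red) and coding promoters (blue) of each list. Both peak just upstream of the TSS, and the red line is lower at the peak and higher on the flanks, with 34.2% of control summits within 100 bp against 67.4% at coding promoters.

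Just inside the 1 kb limit lay Gm16497 (998 bp upstream, signal 21.5, percentile 95.1) and a region in Sox2ot (993 bp upstream, signal 6.94, percentile 18.0) of the control list, and Gm47732 (1000 bp, signal 14.3, percentile 82.8) of the db/db list. Just outside lay 9230020A06Rik (signal 11.5, percentile 56.8) in the control list and, in the db/db list, the partner of that Sox2ot region (signal 5.99, percentile 23.9). The same Sox2ot region was thus a member in 1 list and not in the other because its summit differed by 8 bp. In all, 14 control and 12 db/db members overlapped only regions of another class in the other list.

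By signal, long noncoding promoters ranked below coding promoters and near distal regions. Their median percentile was 45.6 (interval 42.4 to 48.6) in the control and 48.1 (45.2 to 51.2) in the db/db list, against 71.1 and 71.9 for coding promoters and 43.3 and 44.3 for distal regions, of which the control value lies within the members' interval. In signal itself the medians were 10.0 (quartiles 6.98 and 13.4) and 8.37 (5.99 and 12.0). They were spread over the whole range. In the highest 10% of signal were 8.21% and 8.14% of them (23.2% and 24.0% of coding promoters, 4.27% and 5.51% of distal regions), and in the lowest 10% were 13.9% and 11.4% (7.83% and 7.58% of coding promoters, 10.8% and 10.7% of distal regions). Ranked by the −log10 p of the summit in place of signal, their median percentile was 52.4 and 53.1, against 79.0 and 79.5 for coding promoters and 39.9 and 42.2 for distal regions.

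**Figure D2:**
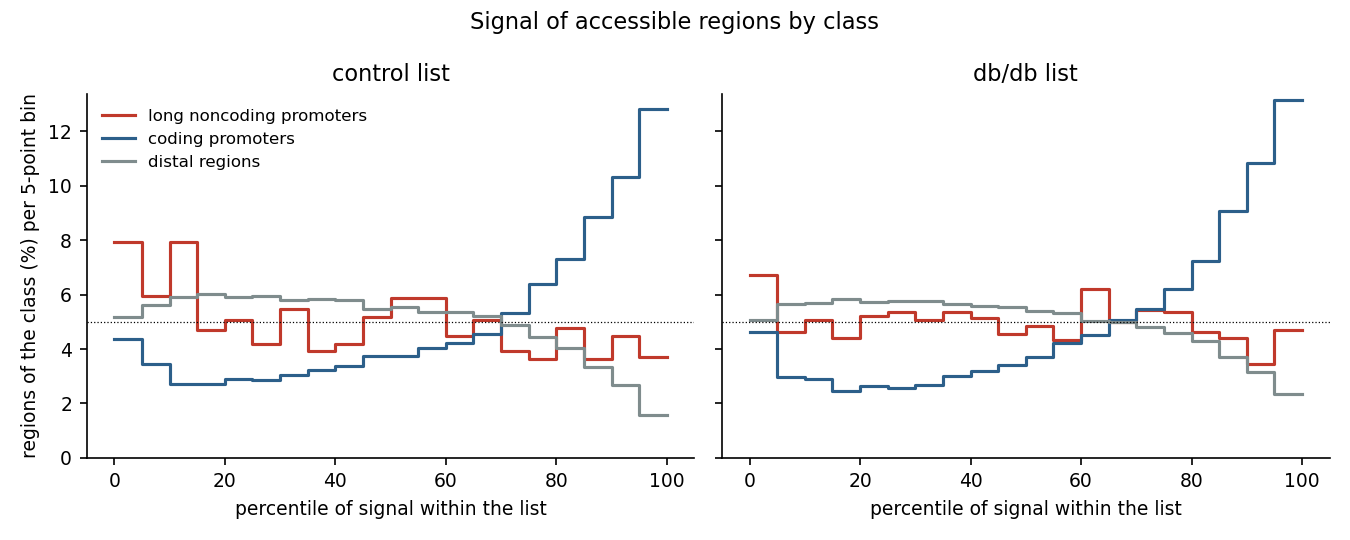
Share of the regions of a class (y axis, %) in each 5-point bin of the percentile of signal within the list (x axis), for long noncoding promoters (red), coding promoters (blue) and distal regions (grey), and the dotted line marks the share that the whole list has in each bin. The red line stays within a few points of the dotted line, highest in the lowest bins, with medians of 45.6 in the control and 48.1 in the db/db list, while the blue line climbs to the highest percentiles.

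Width followed the same order. The median width was 775 bp (quartiles 564 and 1006 bp) in the control and 714 bp (508 and 953 bp) in the db/db list, against 932 and 907 bp at coding promoters and 655 and 596 bp in distal regions. The widest control regions were Gm48957 (2947 bp, near Basp1), Gm4876 (2457 bp) and Gm36584 (2335 bp, near Mex3b), and the widest db/db regions were Gm11638 (2440 bp, inside March10), Gm4876 (2430 bp) and Gm48007 (2144 bp). Their signal was not among the highest, with percentiles from 5.70 (Gm48957) to 61.3 (Gm4876 in the db/db list).

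The strongest long noncoding promoters were much the same genes in both lists. In the control list the order of signal began with Tctn2 (30.1), AA465934 (29.0), 4930553P18Rik (28.7), Snhg6 (27.9) and A530083I20Rik (27.3), followed by Gm12915, 2700038G22Rik, Gm48847, BC002059 and A930016O22Rik (25.9). In the db/db list it began with Gm48847 (27.2), AA465934 (27.1), Snhg6 (26.9), BC002059 (26.9) and Gm5165 (26.5), and 8 of its first 10 genes were also among the first 10 of the control list. Tctn2 and Gm5165 are typed protein-coding by RefSeq, as were 19 of the open control genes and 20 of the open db/db genes. Tctn2 belongs to a complex of the ciliary transition zone. All 12 of these genes had a region in both lists, and in 8 of the 10 control regions the summit lay within 100 bp of the TSS.

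The type of the gene went with its level. Antisense regions had a median percentile of 34.9 (quartiles 13.02 and 60.8) in the control and 40.02 (19.6 and 65.2) in the db/db list, lincRNA regions 48.8 (22.9 and 70.7) and 51.7 (26.6 and 74.6), and processed_transcript regions 42.8 and 50.9.

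Long noncoding genes with a CpG-rich start were more often open than those without. Since the promoter table covered too few members, the first exon was used, its first 200 bases or as many as it has, with at least 50, from the GENCODE transcripts. This gave a value for 956 of 1023 control regions (93.5%) and 1243 of 1339 db/db regions (92.8%). A start was called CpG-rich with GC content of at least 50% and an observed to expected CpG ratio of at least 0.6. By this measure 23.0% (20.5 to 25.8%) of control and 20.3% (18.1 to 22.6%) of db/db long noncoding promoters were CpG-rich, against 75.3% and 71.3% of coding promoters. Of the 652 countable long noncoding genes with a CpG-rich start 36.8% (33.2 to 40.6%) were open in the control and 41.0% (37.2 to 44.8%) in the db/db list, against 10.8% (10.0 to 11.6%) and 14.3% (13.5 to 15.2%) of the 6203 genes without.

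CpG-rich members also had the higher signal. Their median percentile was 55.9 (quartiles 22.7 and 83.1) in the control and 60.8 (33.2 and 84.2) in the db/db list, against 42.1 and 45.0 in CpG-poor members. Among members in the highest 10% of signal 47.4% (36.7 to 58.4%) and 39.8% (30.9 to 49.5%) were CpG-rich, and in the lowest 10% 21.8% and 18.1%. Summits lay within 100 bp of the TSS in 48.2% of CpG-rich and 30.8% of CpG-poor members of the control list, and in 48.4% and 30.2% in the db/db list. By type, 33.8% of the control regions of processed_transcript genes were CpG-rich, 21.8% of antisense and 20.9% of lincRNA regions.

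Long noncoding promoters lay about as far from coding genes as distal regions did. The nearest coding TSS was a median of 27022 bp away in the control list (quartiles 8071.5 and 75791 bp) and 26952 bp in the db/db list (7993.5 and 77363 bp), against medians of 24553 and 25389 bp for distal regions, and 17.3% and 17.2% lay between 1 and 5 kb from it. Within a coding gene lay 21.4% (19.004 to 24.03%) and 23.2% (21.0 to 25.6%), against 52.3% and 53.3% of distal regions. A lincRNA gene is by definition annotated between coding genes, and the part of this in the difference was not tested. Of the 219 control regions within a coding gene 204 belonged to a noncoding gene on the opposite strand, and of the 311 db/db regions 287.

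The nearest coding gene had an accessible promoter in 77.2% (74.6 to 79.7%) of control and 79.7% (77.4 to 81.8%) of db/db members, close to distal regions (78.3% and 82.1%). Where a member and the promoter of its nearest coding gene each had a single partner in the other list (709 pairs, 579 coding genes), the member's percentile was above that of its neighbour in 37.7% of pairs. The levels of the pairs had a Spearman correlation of 0.21 across pairs, which share both lists and are not independent.

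Members close to coding genes had a low signal but not a low −log10 p. Between 1 and 5 kb from a coding TSS the median percentile of signal was 21.1 (16.1 to 29.1) in the control and 30.0 (25.1 to 38.4) in the db/db list, and from 5 to 20 kb it was 49.4 (45.5 to 53.7) and 51.8 (46.2 to 56.8). Ranked by −log10 p, the same members had medians of 45.6 and 50.3 at 1 to 5 kb, and 54.1 and 52.1 at 5 to 20 kb. Distal regions had the same order by signal, 29.5 and 32.7 at 1 to 5 kb. The low rank near coding genes was thus seen in the signal column and not, or much less, in the −log10 p column.

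Between the lists, 43 of the 1023 control members had no overlapping db/db region, which is 4.20% (3.14 to 5.61%), where the share over all 45198 control regions was 4.07%. Without an overlapping control region were 355 of the 1339 db/db members, 26.5% (24.2 to 28.9%), where the share over all 63598 db/db regions was 31.4%. The db/db list is the longer. When both lists were cut to the 45198 regions with the highest −log10 p, 11.9% (10.1 to 14.1%) of control members and 11.1% (9.29 to 13.2%) of db/db members had no partner, beside 13.1% and 12.9% of all regions. Since a cut to equal length brings the unmatched counts of both lists close together by construction, no difference between genotypes is read from these shares.

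Within the db/db list the members lay between the other classes. The share without a control region was 12.1% (11.6 to 12.6%) at coding promoters and 37.7% (37.3 to 38.2%) in distal regions. It fell with signal in all 3 classes. In long noncoding promoters it was 55.9% in the lowest 20% of signal, and in the following bins of 20% it was 39.0%, 26.1%, 7.12% and, in the highest, 0.870%. When the other classes were weighted to the members' distribution over 10 equal bins of signal, the share was 19.6% at coding promoters and 35.2% in distal regions, on either side of the members' 26.5%. Among the types it was 32.2% (27.4 to 37.3%) in antisense, 25.1% (22.3 to 28.2%) in lincRNA and 22.3% (16.9 to 28.8%) in processed_transcript regions. It was 16.7% (12.6 to 21.8%) in CpG-rich and 28.3% (25.5 to 31.1%) in CpG-poor members. Neither the shares by type nor these were weighted by signal, which was higher in CpG-rich members. Within each bin of 20% of signal the CpG-rich share was the lower, but the intervals overlapped. In the lowest bin it was 48.8% against 56.6% in CpG-poor members, and at percentiles 60 to 80 it was 0% against 8.64%.

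**Figure D3:**
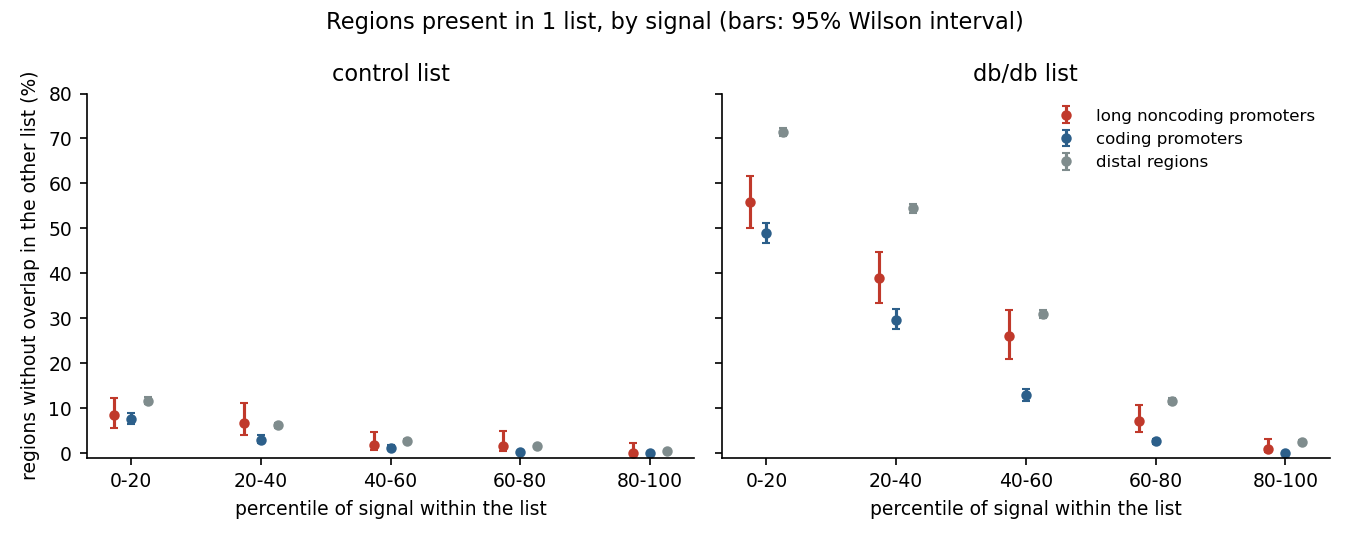
Share of regions without an overlapping region in the other list (y axis, %, with 95% Wilson intervals), by bins of 20 percentile points of signal (x axis), for long noncoding promoters (red), coding promoters (blue) and distal regions (grey). The share falls with signal in every class, and in the db/db list the long noncoding promoters lie between the other classes, at 55.9% in the lowest and 0.870% in the highest bin.

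The strongest control regions without a db/db region belonged to 1700001L05Rik (signal 14.0, percentile 72.5, 100 bp upstream of the TSS, nearest coding gene Arfgap3) and Gm15348 (signal 13.8, percentile 71.5, nearest Atp11a). They were followed by A930003A15Rik (percentile 61.3), Gm32442 (51.3), Gm45349 (50.8), Gm13583 (48.9, inside Pla2r1), Gm14216 (48.9), Gm35025 (39.1, near Celsr3), Gm14508 (38.3) and AC115692.1 (36.6). None of the 43 was in the highest 20% of signal, which held 170 control members (0%, interval up to 2.21%). Over all control regions the share there was 0.232%. In the lowest 20% were 23 of them, 8.49% of the members there, where the share over all control regions was 10.8%.

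The strongest db/db regions without a control region belonged to Gm33680 (signal 15.4, percentile 86.5, 391.5 kb from Stxbp6), 4833413G10Rik (13.6, percentile 80.3), AI839979 (13.5, percentile 79.6, near Slc4a1ap), AC117261.1 (13.01, percentile 77.7, near Atl2) and 2210409D07Rik (12.7, percentile 76.2, inside Ccdc192). After them came a second start site of Gm20139 (percentile 74.2), Gm49797 (73.7), AC160966.1 (71.1, near Sorl1), 5430431A17Rik (70.7) and B530045E10Rik (68.9, 33.2 kb from Dusp6, which codes for a phosphatase of the ERK kinases). Gm33680 and 4833413G10Rik were the only members in the highest 20% of signal without a control region. They were 0.870% of the members there, where the share over all db/db regions was 1.38%.

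The nearest coding promoter rarely appeared with such a region. Of the 355 db/db members without a control region, 259 (73.0%) had a nearest coding gene with an accessible promoter in both lists, 74 in neither, and 20 (5.63%) in the db/db list only, against 4.17% of the 984 db/db members with an overlap. The 20 coding genes were Adamts9, Epha1, Fam155a, Fggy, Glyctk, Gon4l, H1fx, Lgr6, Lypd6b, Mex3d, Notch3, Phldb2, Rhod, Scn4b, Spdef, Stum, Tesc, Tfap2a, Tiam2 and Ttc9b. Of the 43 control members without a db/db region, 37 had a neighbour accessible in both lists and none a neighbour accessible in the control list only.

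Of the members with exactly 1 partner in the other list, 951 could be compared by rank, and their median change was close to 0. Ranks were taken among the 42625 regions of this kind, so that the longer db/db list does not move them. The Spearman correlation of the percentiles across the 951 regions was 0.94. This median, db/db minus control, was 0.17 points (interval −0.077 to 0.723, quartiles −4.15 and 5.44). A rise of at least 10 points was seen in 120 members (12.6%), where the share over all 42625 regions was 13.3%, and a fall of at least 10 points in 107 (11.3%), where it was 12.8%. For coding promoters the median change was −0.92, with 6.598% rising and 12.9% falling, and for distal regions 0.85, with 16.4% and 12.8%.

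**Figure D4:**
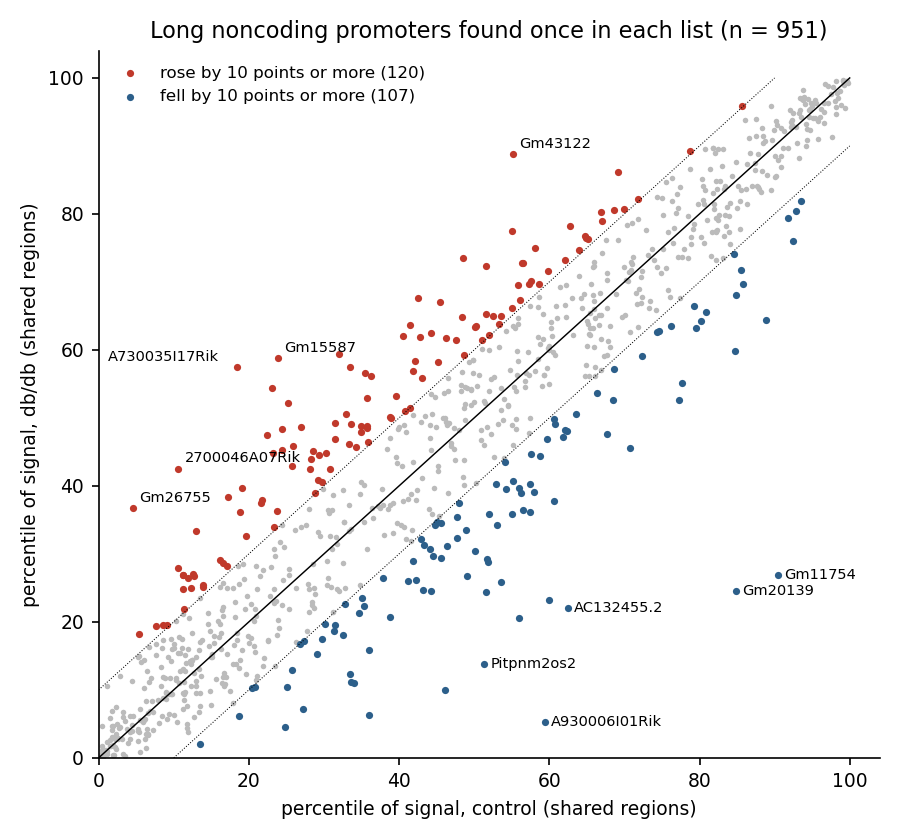
Percentile of signal in the control list (x axis) and in the db/db list (y axis) of the 951 long noncoding promoters with a single partner, ranked among all 42625 such regions. The solid line marks equal percentiles and the dotted lines a change of 10 points. Of these, 120 regions rose by at least that (red), 107 fell (blue), and the 5 largest changes each way are named.

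The 5 largest falls ran from 37.5 to 63.5 points and the 5 largest rises from 31.9 to 38.9 points. Gm11754 went from a signal of 19.1 in the control list to 7.95 in the db/db list, and its percentile fell by 63.5 points, from 90.5 to 27.0. Gm20139, whose promoter is printed above, went from 17.2 to 7.68, and its percentile fell by 60.3 points. Its nearest coding gene, 126.0 kb away, is Tnfaip3, an inhibitor of NF-κB signalling. A930006I01Rik, near Elf5, went from 12.1 to 4.95, a fall by 54.2 points. AC132455.2, 30.6 kb from Zfp36l2, fell by 40.5 points, and Pitpnm2os2, inside Pitpnm2, fell by 37.5 points. Ranked by −log10 p, all 5 fell by between 37.3 and 67.4 points.

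Among the rises, A730035I17Rik, antisense inside the transcription factor gene Prdm8, went from a signal of 7.19 to 11.5 and rose by 38.9 points. Gm15587, which starts inside Nos3, the gene of endothelial nitric oxide synthase, went from 7.80 to 11.7 and rose by 35.0 points. Gm43122 rose by 33.6, Gm26755 by 32.1 and 2700046A07Rik by 31.9 points. Gm26755 lies 2.41 kb from the TSS of Neurod1, a neuronal transcription factor, and its signal went from 4.91 to 9.04. Ranked by −log10 p the 5 rises were smaller, from 11.5 (Gm26755) to 29.5 points (Gm43122). With 1 list per genotype, none of these 10 changes can be set against a spread between animals.

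Across the 709 pairs the change at the long noncoding promoter and that at the nearest coding promoter had a Spearman correlation of −0.073 (Pearson −0.058), and the first lay between −0.19 (1 to 5 kb apart, 112 pairs) and −0.019 (5 to 20 kb, 173 pairs) at the distances examined. Both rose by at least 10 points in 1 pair and both fell in 9, while in 17 pairs they moved by at least 10 points in opposite directions.

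Host genes of small nucleolar RNAs, which guide the modification of ribosomal RNA, had the highest median percentile of the named groups (the plot of known genes). Of 18 such genes listed, 10 could be counted, and 7 were open in both lists, Snhg5, Snhg6, Snhg8, Snhg12, Snhg15, Snhg17 and Snhg20. Their signal ran from 10.2 (Snhg20, percentile 47.3) to 27.9 (Snhg6, percentile 99.5) in the control list, with a median percentile of 92.8, and from 8.34 (Snhg17) to 26.9 (Snhg6) in the db/db list, with a median of 93.8. All 7 summits lay within 100 bp of the TSS in both lists. The change in percentile ran from −19.6 points (Snhg17) to 2.48 points (Snhg12), and 6 of 7 moved by less than 10 points. Gas5, Snhg1 and Snhg14 had no region of the class.

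Host genes of microRNAs covered a wide range of signal. Of 12 that could be counted 8 were open in the control and 7 in the db/db list. Mir155hg, the host of miR-155, a microRNA of activated immune cells, had a signal of 7.86 in the control and 10.0 in the db/db list, and rose by 20.9 points, or 14.2 points when ranked by −log10 p. Mir670hg had 2 regions in the control list, with signals of 19.7 and 6.76, of which the first fell by 12.4 points, and 4 in the db/db list, 2 of them without a control region. Mir99ahg, a gene of 537 kb, had 6 start sites with a region in the control list, at percentiles from 3.67 to 23.8, and 8 in the db/db list. The hosts of miR-124, a neuronal microRNA, had low signals. Mir124a-1hg had 3 regions in the control list, at 6.32, 2.84 and 3.95, and 2 in the db/db list, of which the second was at 5.09. The Mir124a-1hg regions of control signal 6.32 and 3.95 were 2.26 and 4.43 points higher in the db/db list by signal. By −log10 p they were 33.1 and 7.40 points lower. Mir124-2hg was open in the control list only, with a signal of 4.86 (percentile 4.92, or 42.3 by −log10 p). Mir17hg (percentile 51.5), Dleu2 (75.2) and C130071C03Rik, the host of a miR-9 gene (27.4), changed by less than 5 points.

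Of 8 imprinted genes that could be counted, Kcnq1ot1, Airn and Rian were open in both lists. Each of the 3 had a lower shared percentile in the db/db list, and 2 fell by at least 10 points. Over all 42625 shared regions 12.8% fell by that much, and 3 genes are too few to set against this share. Kcnq1ot1 had a signal of 20.2 in the control and 15.4 in the db/db list, and fell by 12.4 points. Airn went from 11.4 to 9.89, a difference of −9.83 points, and Rian, a host of small nucleolar RNAs in the Dlk1 domain, from 8.13 to 6.76, a fall by 10.2 points. Ranked by −log10 p the changes were −7.82, −8.78 and −9.85 points. H19, Meg3, Mirg, Nespas and Snhg14 had no region of the class in either list.

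Long noncoding genes beside neural and eye transcription factor genes were open at low signal, with a median percentile of 9.16 in the control and 9.32 in the db/db list, or 42.8 and 23.6 by −log10 p. Each median takes the region nearest to a start of the gene in that list. For Six3os1 and Sox2ot these were different regions in the 2 lists, and Pax6os1 entered the db/db median only. The medians therefore do not compare the lists. Six3os1, Sox2ot, Vax2os and Rmst were open in both lists and Pax6os1 in the db/db list only, of 12 that could be counted, and no such region passed percentile 27.0 in the control list. The Sox2ot region nearest to Sox2 (11.02 kb) went from a signal of 6.63 to 7.75 and rose by 11.2 points, and Vax2os went from 7.94 to 5.89 and fell by 14.6 points. Further start sites, of Six3os1 (signal 2.29) and Sox2ot (4.59), and the Pax6os1 region (2.29, 1.40 kb from a Pax6 TSS) had no control region, at percentiles from 0.147 to 9.32. Otx2os1, Dlx6os1, Dlx1as, Nkx2-2os, Pantr1, Pantr2 and Wt1os had none in either list.

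Of 9 general nuclear and cytoplasmic long noncoding RNA genes that could be counted, 5 were open in both lists. Epb41l4aos was the strongest, with a signal of 22.001 in the control and 21.3 in the db/db list. Malat1, whose RNA is among the most abundant of the nucleus, had a narrow region at its start of 270 bp in the control and 234 bp in the db/db list, with signals of 5.07 (percentile 5.80) and 4.65 (percentile 9.94), and by −log10 p it stood at percentiles 61.4 and 65.7 of the whole lists, while among shared regions its rank by −log10 p changed by −9.76 points. Crnde, beside Irx5, had signals of 8.58 in both lists and was at percentile 92.2 by −log10 p in the control list. Pvt1, beside Myc, had signals of 7.69 and 7.60. Lncpint had 2 regions of its own shared by the lists, with signals of 10.6 and 7.32 in the control and 11.2 and 7.39 in the db/db list, and another nearest to 2210408F21Rik, with a signal of 3.30 in the control list. At the regions nearest to the start the 5 genes changed by between −1.31 (Malat1) and 1.82 points (Crnde). Neat1, which builds paraspeckles, was open in the control list by a summit 173 bp from its TSS and 28 bp from that of Frmd8os (signal 4.69), which a db/db region overlapped, and 2900097C17Rik in the db/db list only (signal 8.78, percentile 51.6). Miat and Tug1 had no region of the class.

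Of 10 Hox cluster long noncoding genes, Hoxd3os1 was open, in both lists, with a signal of 11.2 in the control and 12.6 in the db/db list, a rise by 12.5 points. Hotair, Hottip and Hotairm1 were among the 9 without a region.

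**Figure D5:**
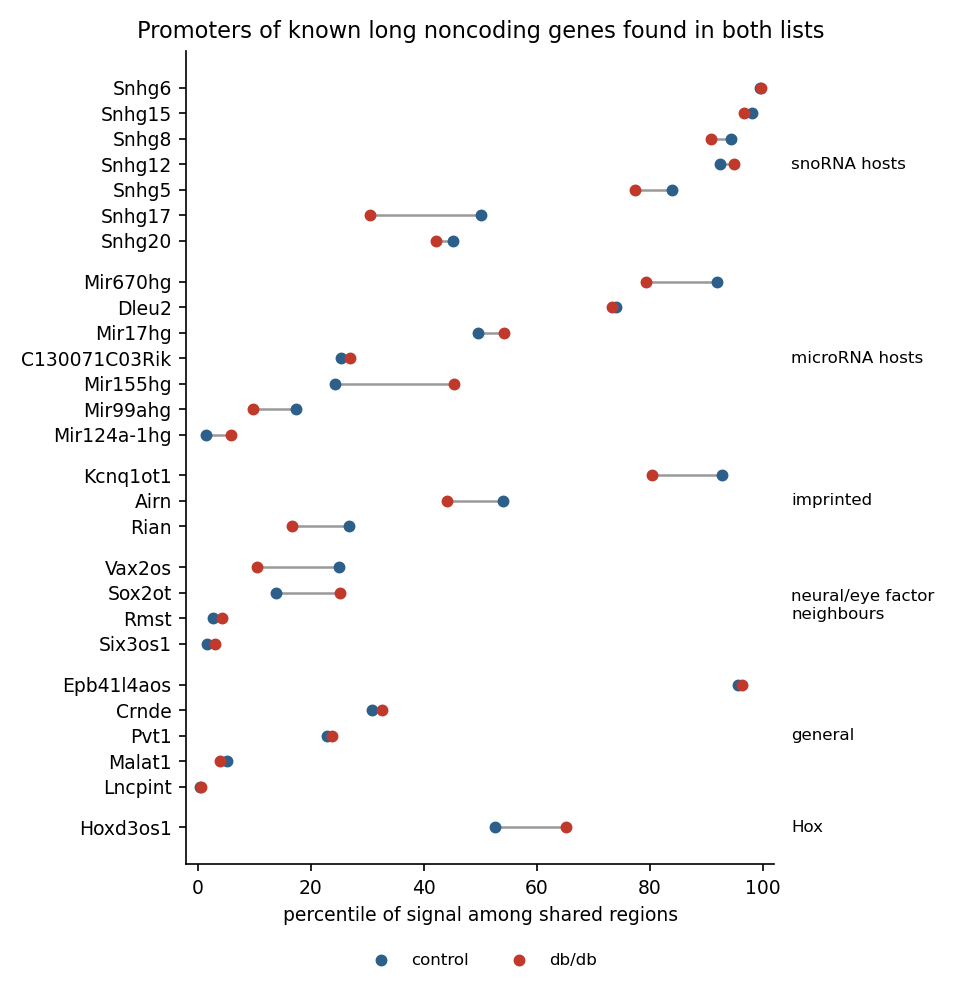
Percentile of signal among shared regions (x axis) in the control (blue) and the db/db list (red) for promoters of listed long noncoding genes (rows, grouped by kind) that had a single partner. Each point is 1 region of 1 list, without error, and a line joins its pair. Small nucleolar RNA hosts lie at the right except Snhg17 and Snhg20, the 3 imprinted genes are lower in the db/db list, and most other pairs lie close together.

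Beside 37 coding genes for regulators of Müller cells and the retina, members had 15 of them as nearest coding gene in the control list (21 regions) and 18 in the db/db list (29 regions, 9 without a control region, where the share over all db/db regions was 31.4%). These regions were low in signal, with a median percentile of 15.2 in the control and 19.1 in the db/db list, and near the middle by −log10 p, at 52.0 and 48.5. Of the 21 control regions, 1 rose and 1 fell by at least 10 points, where the shares over all 42625 shared regions were 13.3% and 12.8%. The fall was Gm40477, 37.6 kb from Fos, a component of AP-1, whose signal went from 17.2 to 11.9 and whose percentile fell by 24.8 points. The rise was the Sox2ot region nearest to Sox2.

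The other 19 control regions changed by less than 10 points by signal, although Gm49156, 67.6 kb from Otx2, was 5.84 points lower by signal and fell by 35.3 points by −log10 p. Around Hes1, a target of Notch, Gm26569, 4632428C04Rik and 9030404E10Rik had signals of 13.1, 12.0 and 13.4 in the control list and 12.8, 13.1 and 13.7 in the db/db list. AC124518.3, 116.8 kb from Nr3c1, the gene of the glucocorticoid receptor, had a signal of 8.80 in the control and 8.82 in the db/db list, a change of 2.06 points. BC006965, 70.4 kb from Sox9, which maintains Müller cell identity, had 6.39 and 6.43. Gm13479, far from Zeb2, had 14.9 and 13.2. Paupar and Junos, close to Pax6 and Jun, were at the bottom of both lists by signal, with Paupar at 3.26 and 3.72. By −log10 p Paupar stood at percentiles 19.4 and 48.5, and the 2 Junos regions at 41.4 and 52.0 in the control and 56.5 and 71.0 in the db/db list. Regions whose nearest coding gene was Id2 (Gm36723), Lhx2 (Gm27197) or Nfib (Gm11266 and Gm11269) were found in the db/db list only, with signals from 2.47 (Gm11266) to 7.72 (Gm36723).

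Several long noncoding genes had many accessible start sites. 3110039I08Rik, a gene of 390 kb near Sorl1 and Ubash3b, had 7 regions in each list and every one had a partner, at percentiles from 9.25 to 56.9 in the control list. Gm3764, beside Mef2d, had 4 in each, and D630033O11Rik and Lncpint had 4 in the db/db list, of which 2 each had no control region. By coding neighbour, Ubash3b had 6 members in both lists and Zfp36l1, which codes for an RNA-binding protein, 5 in the control list, and Cd83 had 6 in the db/db list.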

How the data were processed

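ATAC-seq peaks of Müller cells from control and db/db mice, 1 list per genotype, were used as deposited, on the build mm10 per the submitters' processing notes. For each peak the authors gave a signal, a score, −log10 p and −log10 q values, and the summit position (other). The deposited score (540 to 1000 in both lists) was not used, and −log10 q served for a stricter filter (at least 5) tried as an alternative. The peak caller and the scaling of the deposited signal are not given in the sources used here. The authors' replicate 2 and RNA-seq were not analysed here, and since the scale of signal may differ between lists, differences were read from percentiles within a list only.

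Rows that overlap were merged on chromosomes 1 to 19, keeping the row with the highest signal, which turned 81757 control rows and 109995 db/db rows into 46189 and 64883 regions, of which 45198 and 63598 were autosomal. Regions were shared when they overlapped by at least 1 bp. Percentiles are ranks of signal within a list. TSS were those of all transcripts of GENCODE M21. Python 3.11.15, numpy 2.4.6, scipy 1.17.1, pandas 2.3.3 and matplotlib 3.10.9 were used. The steps were tested on simulated data. Alternatives were equal list lengths, narrower windows, lincRNA genes only, 1 TSS per gene, a 50% overlap, and, added after the data were seen, ranking by −log10 p and leaving out genes that RefSeq types as protein-coding. Shares have 95% Wilson intervals, and medians have intervals from order statistics. No test between genotypes was possible with 1 list each.

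Genes named were all open genes of the lists, the 10 strongest members and the 10 strongest members without a partner per list, the 5 largest rises and falls, the 3 widest, and the 5 nearest to the 1 kb limit. Printed promoters, neighbour pairs and the first-exon measure, which replaced the promoter windows because these covered too few members, were chosen after the data were seen. Members and lists were chosen with earlier results of these data known. The nearest coding genes of 2 named regions are not reported here.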

Additional observations from a re-analysis of the deposited data

How the results depend on the processing

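No paired analysis was possible because each genotype had 1 peak list, and for the same reason no replicate could be left out. Of 110 values recomputed under other settings, 87 stayed within their interval or within 1.5 times the count, and 23 moved. The median change in percentile of shared regions, 0.17 points with an interval that includes 0, changed sign with 1 TSS per gene (−0.0047) and with lists of equal length. With lincRNA genes only, there were 642 control and 829 db/db regions and 624 and 778 open genes, the median percentile was 49.0 and 52.6, and 5.14% and 4.70% lay inside a coding gene. With lists of equal length, regions without a partner were 11.9% of control and 11.1% of db/db members, which such a cut brings close together by construction. In the same setting the db/db median width was 792 bp, 75.9% of db/db members had an accessible nearest coding promoter, and the median change of shared regions was −0.083 points. Within 500 bp of a TSS the control median percentile was 48.9, and ranked by −log10 p, a setting added after seeing the data, the medians were 52.4 and 53.1. More than 2 kb from coding TSS, 18.5% and 20.4% lay inside a coding gene. With 1 TSS per gene these were 34.3% and 35.4%, an accessible nearest coding promoter was found in 64.2% and 67.3%, and the db/db median width was 745 bp. Apart from fewer members in the narrower definitions and the cut to equal length, the cause was not tested. Without replicate lists or depths, neither the spread between animals nor what depth adds to the longer db/db list can be given.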
